A study of Mus musculus with 11 samples.

Results

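The mitochondrial ribosomal proteins were followed here across 3 genotypes of embryonic mouse heart. The members were the genes whose probe sets, short groups of oligonucleotides that measure 1 transcript on the array, carried a single annotated symbol beginning with Mrpl or Mrps and a digit. There were 76 of them among the 18193 genes with such a probe set, 47 with large subunit symbols (Mrpl) and 29 with small subunit symbols (Mrps). Where a gene had several, the one with the highest mean level over all arrays stands for it. The members had 156 probe sets in all: 34 genes had 1, and 42 had several, with up to 8. RefSeq lists 78 protein-coding mouse genes with such symbols, of which Mrpl30 and Mrpl53 were not analysed here.

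RNA came from pooled hearts at embryonic day 9.5. The labels do not give the pool of each array, so that each array had its own pool is assumed. The 5 conditional knockout arrays (CKO) are labelled Gata4 flox/flox with Nkx2-5 Cre/+, that is, both Gata4 alleles floxed and Cre inserted at 1 allele of Nkx2-5. The 3 double heterozygous arrays are labelled Gata4 flox/+ with Nkx2-5 Cre/+, and the 3 control arrays Gata4 flox/+ with Nkx2-5 +/+. Every group therefore carried at least 1 floxed Gata4 allele, and both Cre groups had 1 Nkx2-5 allele that held Cre. Nkx2-5 is active in the cardiac progenitors and muscle of the early heart, so other cells of the dissected heart need not have recombined. Gata4 encodes a cardiac transcription factor, and the series title names the cell cycle gene Ccnd2 (Cyclin D2) as its target.

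Mitochondrial ribosomes translate the few proteins that mitochondrial DNA encodes, all of them subunits of the respiratory chain and ATP synthase. Their own proteins are encoded in the nucleus, made in the cytosol and imported. The small subunit reads the messenger RNA, and the large subunit joins the amino acids and releases the chain through an exit tunnel toward the inner membrane. The heart depends on this system, and inherited defects of human MRPL3, MRPL44 and MRPS22 are linked to cardiomyopathy.

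Levels are given as log2 of the deposited intensity plus an offset of 16 after quantile normalisation, which gives all arrays 1 distribution; an intensity of 0 lies at 4 on this scale. Differences are on the same log2 scale. A difference is called when its adjusted p is under 0.05 (limma, Benjamini-Hochberg over all 45037 probe sets). Gata4 itself had levels of 9.53, 9.28, 9.45, 9.37 and 9.53 in the CKO arrays, 9.40, 9.21 and 9.33 in the double heterozygous arrays, and 8.77, 9.09 and 9.09 in the control arrays. It was thus higher, not lower, in CKO than in control arrays (difference 0.45 ± 0.0967 SE, adjusted p = 0.0321), a call lost without CKO replicate 5, any 1 control array, or double heterozygous replicate 1 or 3 (adjusted p 0.0537 to 0.242). Gata4 had 2 probe sets, and these values are from the brighter. The other was also higher in CKO than in control arrays, but lower in CKO than in double heterozygous arrays. The sources used here do not say whether either probe set lies in the floxed part. The level of Gata4 therefore does not check the labels, and the arrays are called CKO-labelled below. Nkx2-5, the gene that carries Cre, had levels of 9.35, 9.59, 9.65, 8.78 and 9.32 in the CKO-labelled arrays, 9.54, 9.53 and 9.37 in the double heterozygous arrays, and 9.85, 9.83 and 9.93 in the control arrays. Each array labelled with Cre thus lay below each control array, but neither difference was called (-0.53, adjusted p = 0.099 for CKO-labelled minus control, and -0.39, adjusted p = 1.0 for double heterozygous minus control). Ccnd2 was 1.39-fold lower in CKO-labelled than in control arrays (adjusted p = 0.0197), a call lost without CKO replicate 5 or any 1 control array (adjusted p 0.0554 to 0.112). The labels name no litter or batch, and p-values measure the spread between these arrays only. Mean deposited intensity was 117.2 in CKO replicate 3 and 166.4 to 175.6 in the other arrays. The 3′ to 5′ difference of the beta-actin control probe sets, a measure of RNA integrity, was 1.001 in CKO replicate 2 and 0.30 to 0.45 in the other arrays.

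Promoters are shown for the 3 members called in CKO-labelled against control hearts, and for Mrpl22, which holds 2 of the motifs and was chosen after its values were seen. Each runs from 250 bases before to 50 bases after the annotated start (RefSeq, GRCm38.p6), 5′ to 3′, with the motif match in capitals. The motifs searched, on both strands, were GCGCATGCG for NRF1 with its looser form GCGCNTGCG, which contains it, CCGGAAG for ETS factors such as GABPA, and AAGATGGCG for YY1. These are transcription factors known to act on many nuclear genes for mitochondrial proteins.
Mrps23 promoter, chr11:88204138-88204437, plus strand: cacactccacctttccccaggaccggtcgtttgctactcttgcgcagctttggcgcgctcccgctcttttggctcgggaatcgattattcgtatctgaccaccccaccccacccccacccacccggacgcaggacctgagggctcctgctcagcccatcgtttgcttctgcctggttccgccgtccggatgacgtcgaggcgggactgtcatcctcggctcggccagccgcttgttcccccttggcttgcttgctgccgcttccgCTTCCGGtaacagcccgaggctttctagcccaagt
Mrpl36 promoter, chr13:73330759-73331058, plus strand: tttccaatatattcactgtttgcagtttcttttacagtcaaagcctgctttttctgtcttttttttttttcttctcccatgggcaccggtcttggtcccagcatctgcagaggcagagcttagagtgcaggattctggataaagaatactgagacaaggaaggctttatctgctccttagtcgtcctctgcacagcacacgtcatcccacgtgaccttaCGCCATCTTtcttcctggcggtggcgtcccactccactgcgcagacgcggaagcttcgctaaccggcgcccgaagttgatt
Mrpl3 promoter, chr9:105053018-105053317, plus strand: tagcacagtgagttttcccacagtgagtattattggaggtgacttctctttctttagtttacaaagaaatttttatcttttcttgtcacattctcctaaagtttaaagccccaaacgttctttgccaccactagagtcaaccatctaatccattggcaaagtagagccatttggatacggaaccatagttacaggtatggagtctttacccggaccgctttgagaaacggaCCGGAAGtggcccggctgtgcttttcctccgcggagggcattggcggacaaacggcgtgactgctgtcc
Mrpl22 promoter, chr11:58171414-58171713, plus strand: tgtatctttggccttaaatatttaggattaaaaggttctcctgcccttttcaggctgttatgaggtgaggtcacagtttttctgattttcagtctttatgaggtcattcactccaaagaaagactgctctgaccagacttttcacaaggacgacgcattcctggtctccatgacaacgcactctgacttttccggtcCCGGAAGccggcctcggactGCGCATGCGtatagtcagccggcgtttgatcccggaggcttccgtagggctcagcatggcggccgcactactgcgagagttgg

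In Mrps23 the ETS match begins 15 bases after the start, and in Mrpl3 19 bases before it. The YY1 match of Mrpl36 begins 31 bases before the start, and Mrpl22 has an NRF1 match 33 and an ETS match 53 bases before it. Of the 76 members, 67 had a promoter in the table. The ETS motif was found in 25 of these (37.3%), against 9.93% of the 27025 genes in the table. The looser NRF1 motif was in 17 (25.4%, against 7.12% of all genes), its strict form in 7 (10.4%, against 1.95%), and the YY1 motif in 8 (11.9%, against 1.64%). At least 1 of the looser NRF1, ETS or YY1 motifs was in 41 members (61.2%), against 16.6% of all genes. That share was 63.4% for large and 57.7% for small subunit genes. It was 63.6% for cytosolic ribosomal proteins and 56.1% for subunits of the respiratory chain and ATP synthase. The median difference between CKO-labelled and control hearts was -0.25 in the 25 with and -0.24 in the 42 without the ETS motif, -0.24 in the 17 with and -0.25 in the 50 without the looser NRF1 motif, and -0.31 in the 8 with and -0.23 in the 59 without the YY1 motif. A match is a run of letters, not a shown binding site.

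The first comparison asked how the mitochondrial ribosomal proteins stood in CKO-labelled hearts against control hearts. Nearly the whole set lay lower by a small amount. The mean was lower in CKO-labelled hearts for 72 of 76 members, and the median difference was -0.24, with a range from -0.68 to 0.25. Of all 156 probe sets of the members, 129 were lower, and of the 107 at or above the level of the dimmest member, 101. Of the 42 members with several probe sets, 21 had all of them lower. Over all probe sets tested the median was -0.01 and 51.5% were lower. Among the 6249 genes at or above the level of the dimmest member, a background chosen after seeing the data, the median was -0.04 and 57.3% were lower. In such bulk RNA, fewer cells of a type and less RNA per cell cannot be told apart.

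Of the 76 members, 3 fell past the threshold (Mrps23, Mrpl36 and Mrpl3) and 0 rose. Of all probe sets, 1.4% were called, 0.566% lower and 0.837% higher. The number of members called depended on single arrays: it was 0 without any 1 of the 3 control arrays, 1 without CKO replicate 5 or without double heterozygous replicate 1 or 3, 5 without CKO replicate 2 and 6 without CKO replicate 1. At an unadjusted p under 0.05, 42 members were lower and 1 was higher, against 7.33% and 5.89% of all probe sets. Of the 6249 genes at or above the dimmest member, 1003 were lower and 718 higher at that p, a larger share than over all probe sets. Among those genes 98 were called lower and 173 called higher. All 5 CKO-labelled arrays lay below all 3 control arrays for 27 members (35.5%), against 5.81% of all probe sets and 12.8% of the genes at or above the dimmest member. No member had all CKO-labelled arrays above all control arrays, against 3.93% of all probe sets.

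**Figure D1:**
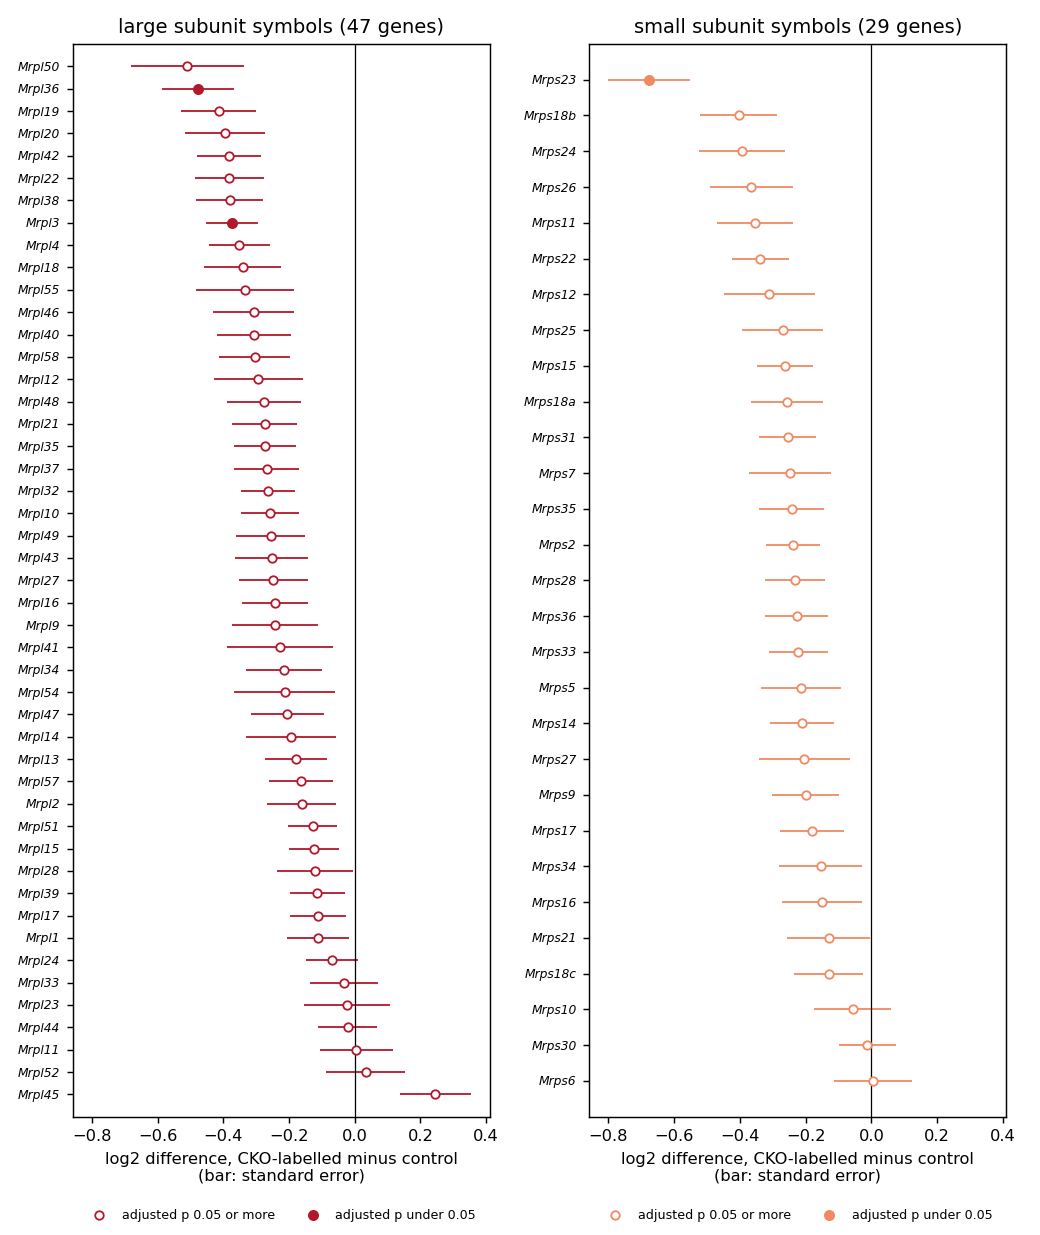
Log2 difference between CKO-labelled and control means for each of the 47 large subunit genes (left) and 29 small subunit genes (right), with bars for the standard error of the fit. Filled points had an adjusted p under 0.05. In the large subunit 44 points and in the small subunit 28 points lie below 0.

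The small subunit protein Mrps23 had the largest difference. Its level was 8.16, 7.58, 7.75, 7.81 and 7.67 in the CKO-labelled arrays, 8.36, 8.59 and 8.26 in the double heterozygous arrays, and 8.47, 8.50 and 8.44 in the control arrays. Every CKO-labelled array lay below every other array, with replicate 1 closest to them. Mrps23 was 1.6-fold lower in CKO-labelled than in control arrays (difference -0.68 ± 0.125 SE, adjusted p = 0.0138). A second Mrps23 probe set was also called lower (difference -0.47, adjusted p = 0.0343), and another had a difference of -0.33 that was not called.

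Mrpl36 encodes a small zinc-binding protein of the large subunit. It had levels of 8.60, 8.32, 8.24, 8.04 and 8.21 in the CKO-labelled arrays, 8.72, 8.77 and 8.67 in the double heterozygous arrays, and 8.79, 8.72 and 8.77 in the control arrays. The CKO-labelled arrays were again all lowest, while the other groups overlapped. It was 1.39-fold lower in CKO-labelled than in control arrays (difference -0.48 ± 0.109 SE, adjusted p = 0.0439), from its only probe set. Mrpl3, which lies near the site where peptide bonds form, had levels of 9.25, 9.37, 9.23, 9.36 and 9.32 in the CKO-labelled arrays, 9.47, 9.65 and 9.55 in the double heterozygous arrays, and 9.58, 9.79 and 9.66 in the control arrays. Its CKO-labelled arrays were close together and below all others. It was 1.30-fold lower in CKO-labelled than in control arrays (difference -0.37 ± 0.0789 SE, adjusted p = 0.0299). Its second probe set was also called (difference -0.49, adjusted p = 0.0278), and all 4 of its probe sets were lower. Without control replicate 1, 2 or 3 the adjusted p was 0.0921, 0.0979 and 0.0722 for Mrps23, 0.229, 0.176 and 0.171 for Mrpl36, and 0.0822, 0.213 and 0.124 for Mrpl3. Mrpl36 also missed the threshold without CKO replicate 3, 4 or 5 (adjusted p = 0.0536, 0.0666 and 0.114) and without any 1 double heterozygous array (0.0671 to 0.0787). Mrpl3 also missed it without CKO replicate 5 (adjusted p = 0.0715) and without double heterozygous replicate 1 or 3 (0.0519 and 0.0516).

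Other large subunit genes came close to the threshold without passing it. Mrpl42 had levels of 10.43, 10.01, 10.23, 10.01 and 10.08 in the CKO-labelled arrays, 10.47, 10.70 and 10.41 in the double heterozygous arrays, and 10.58, 10.52 and 10.50 in the control arrays, a difference of -0.38 from control (adjusted p = 0.0743). Mrpl38, a protein of the central protuberance, had levels of 7.64 to 8.02 (median 7.90) in the CKO-labelled arrays and 8.20 to 8.26 in the control arrays (difference -0.38, adjusted p = 0.0838). Its dimmer probe sets had differences of -0.323 and 0.058, neither called. Mrpl4 and Mrpl22, which both line the exit tunnel, had differences of -0.35 (adjusted p = 0.0864) and -0.38 (adjusted p = 0.0964). In each of these 4 genes the CKO-labelled arrays lay wholly below the control arrays. Mrpl50 and Mrpl19 were outside the rule for naming genes and were chosen after their values were seen. Mrpl50 had levels of 8.30, 7.30, 8.17, 8.11 and 8.01 in the CKO-labelled arrays against 8.59, 8.36 and 8.52 in the control arrays, with CKO replicate 2 far below the others, and its difference of -0.51 was not called (adjusted p = 0.181). Mrpl19 had a difference of -0.41 (adjusted p = 0.0974), and a second of its probe sets was called lower (difference -0.46, adjusted p = 0.0465).

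Among small subunit genes, Mrps22 had levels of 9.25, 9.02, 9.09, 9.0 and 8.93 in the CKO-labelled arrays, 9.19, 9.38 and 9.34 in the double heterozygous arrays, and 9.41, 9.39 and 9.39 in the control arrays. The CKO-labelled and control arrays did not overlap, and the difference of -0.34 was not called (adjusted p = 0.0746). Mrps18b had a difference of -0.40 (adjusted p = 0.117), with 8.07 in CKO replicate 4, 8.56 to 8.64 in the other CKO-labelled arrays and 8.85 to 8.93 in the control arrays. Its relatives Mrps18a and Mrps18c had differences of -0.26 and -0.13. Mrps24 had a difference of -0.39 (adjusted p = 0.175) with overlapping groups, Mrps11 one of -0.35 (adjusted p = 0.171) and Mrps15 one of -0.26 (adjusted p = 0.161), the last 2 without overlap. Mrps12, a protein of the decoding centre, had a difference of -0.31 (adjusted p = 0.344) and Mrps16 one of -0.15 (adjusted p = 0.666).

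The members did not all differ alike. Mrpl12 forms the flexible stalk that recruits translation factors. Its levels were 9.69, 10.03, 9.76, 9.18 and 9.51 in the CKO-labelled arrays, 9.83, 9.76 and 9.79 in the double heterozygous arrays, and 9.91, 9.95 and 9.92 in the control arrays. The CKO-labelled arrays spread on both sides of the control arrays, and the difference of -0.29 was not called (adjusted p = 0.365). Mrpl44 had a difference of -0.02, with 8.18 to 8.44 in the CKO-labelled arrays and 8.27 to 8.39 in the control arrays. Its dimmer probe sets had differences of -0.082, -0.124 and -0.297, none called. Mrps30, which has a small subunit symbol but sits in the large subunit by structure, had a difference of -0.01. Mrps36, whose product is known as a component of the 2-oxoglutarate dehydrogenase complex, had one of -0.23 (adjusted p = 0.309).

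Members with the brightest and dimmest probe sets also lay lower by small amounts that were not called. Mrpl51 had levels of 10.42 to 10.68 in the CKO-labelled arrays and 10.63 to 10.72 in the control arrays (difference -0.13), and Mrpl15 had a difference of -0.12. Among the brightest small subunit probe sets, Mrps14, Mrps17 and Mrps21 had differences of -0.21, -0.18 and -0.13, each with overlapping groups. The dimmest were Mrpl55, with a difference of -0.33 (adjusted p = 0.344), and Mrps27, an RNA-binding protein, with one of -0.20 (adjusted p = 0.587). Mrpl21 had a difference of -0.27 with overlap. Mrpl32, a zinc-binding protein, had levels of 8.83 to 9.15 in the CKO-labelled arrays and 9.21 to 9.25 in the control arrays (difference -0.27, adjusted p = 0.142), and Mrps33 had a difference of -0.22, both without overlap.

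The 4 members with a higher mean in CKO-labelled hearts were Mrpl45, Mrpl52, Mrpl11 and Mrps6, all outside the naming rule and chosen after their values were seen. Mrpl45, which contacts the inner membrane at the tunnel exit, had levels of 9.14, 9.38, 8.99, 8.95 and 8.83 in the CKO-labelled arrays, 8.87, 8.84 and 8.85 in the double heterozygous arrays, and 8.84, 8.86 and 8.74 in the control arrays. Replicate 5 of the CKO-labelled arrays overlapped the control arrays, and the difference of 0.25 was not called (adjusted p = 0.342). The differences of Mrpl52, Mrpl11 and Mrps6 were 0.03, 0.01 and 0.01. For Mrpl52 and Mrps6 the direction depended on the probe set. The other probe sets of Mrpl52 had differences of -0.085, -0.045 and 0.256, and that of Mrps6 had -0.128, none called. All 4 probe sets of Mrpl11 were higher.

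**Figure D2:**
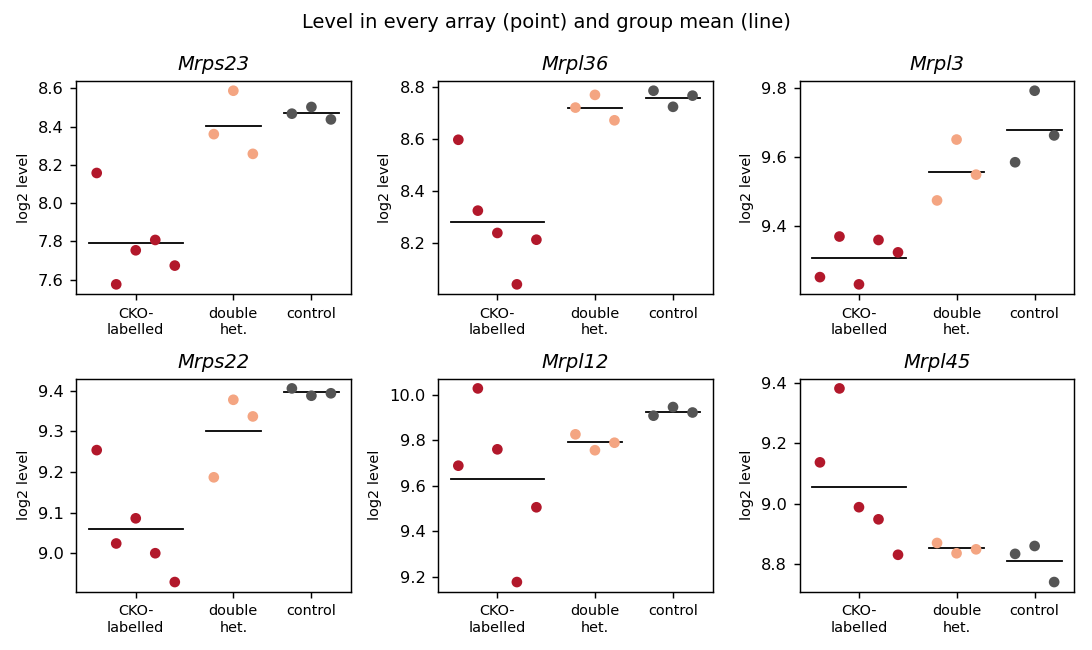
Log2 level of 6 members in every array, with CKO-labelled arrays at the left, double heterozygous arrays in the middle and control arrays at the right, and lines at the group means. Mrps23, Mrpl36 and Mrpl3 have all CKO-labelled arrays lowest, Mrpl12 is spread from 9.18 to 10.03 in them, and Mrpl45 has a higher mean there; the vertical axes differ between panels and do not start at 0.

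The large and small subunits had medians that differed by less than the spread between arrays. In CKO-labelled against control hearts the median was -0.25 for the large subunit, with 44 of 47 genes lower and 2 called, and -0.23 for the small subunit, with 28 of 29 lower and 1 called. All CKO-labelled arrays lay below all control arrays in 18 large and 9 small subunit genes, which is 38.3% and 31.0% of each. The medians of the gene differences differed by -0.015 (large minus small). Large minus small was also taken array by array, from the medians relative to the control mean of each gene. That value averaged 0.003 in CKO-labelled and -0.004 in control arrays, with a pooled SD between arrays of 0.0386. The difference of -0.015 became -0.028 to 0.016 with 1 array left out. Its sign turned without control replicate 1 or CKO replicate 5 (0.001), and with the replicate block (0.021). With Mrps30 and Mrps18a counted in the large subunit and Mrps36 left out, a choice made after seeing the data, the difference was -0.012.

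The size of the difference varied between CKO-labelled arrays, and both subunits varied together. Relative to the control mean of each gene, the median over the large subunit was -0.11, -0.08, -0.21, -0.46 and -0.31 in CKO replicates 1 to 5, -0.09, 0.07 and -0.09 in the double heterozygous arrays, and 0.05, -0.02 and -0.03 in the control arrays. Over the small subunit it was -0.08, -0.14, -0.22, -0.44 and -0.29 in the CKO-labelled arrays, -0.06, 0.01 and -0.09 in the double heterozygous arrays, and 0.02, 0.01 and -0.01 in the control arrays. CKO replicate 4 was the lowest and replicates 1 and 2 the least lowered, and double heterozygous replicates 1 and 3 lay close to these 2 arrays. Of the 76 members, 59, 55, 68, 75 and 75 lay below their control mean in CKO replicates 1 to 5. CKO replicate 4 was the lowest CKO-labelled array for 56 members, 34 of the large and 22 of the small subunit. Without it the median difference was -0.19 and 68 members were lower. The typical SD of a member between arrays was 0.185 in the CKO-labelled group, 0.0821 in the double heterozygous group and 0.0705 in the control group, against medians of 0.221, 0.162 and 0.139 over all probe sets.

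**Figure D3:**
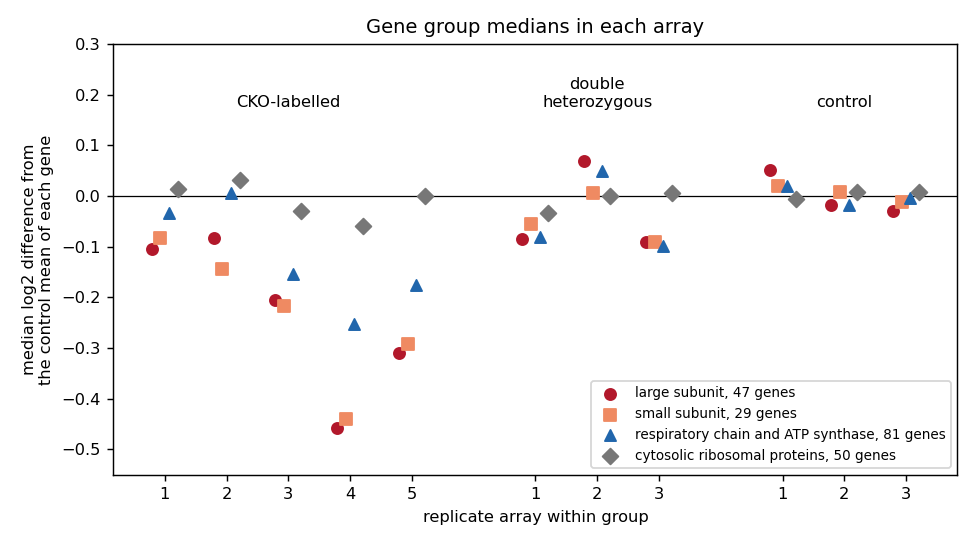
Median log2 difference from the control mean of each gene, by array, for the large subunit (circles), the small subunit (squares), respiratory chain and ATP synthase subunits (triangles) and cytosolic ribosomal proteins (diamonds). Both mitochondrial subunits reach -0.46 and -0.44 in CKO replicate 4, where the cytosolic ribosomal proteins are at -0.06 after quantile normalisation.

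The second comparison set CKO-labelled against double heterozygous hearts, which both carry Cre at Nkx2-5 and differ by 1 floxed Gata4 allele. It shares its CKO-labelled arrays with the first. Here 70 of 76 members were lower, with a median of -0.19 and a range from -0.61 to 0.21, against a median of -0.01 over all probe sets. Limma called 0 members (4 without CKO replicate 1 and 1 without CKO replicate 3), where 0.349% of all probe sets were called, 0.0622% lower and 0.286% higher. At an unadjusted p under 0.05, 30 members were lower and 0 higher, against 6.54% and 5.44% of all probe sets. Of the 6249 genes at or above the dimmest member, 827 were lower and 592 higher at that p. The groups did not overlap for 17 members, all lower (22.4%), against 4.45% of all probe sets lower, 3.07% higher, and 10.4% of the genes at or above the dimmest member lower. The median was -0.20 in the large subunit, with 42 of 47 lower, and -0.19 in the small subunit, with 28 of 29 lower.

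Mrps23 again had the largest difference, -0.61, and stood just outside the threshold (adjusted p = 0.053). Mrpl50 had a difference of -0.47 (adjusted p = 0.284). Mrps11 had one of -0.44 (adjusted p = 0.141), with 7.44, 7.32, 7.5, 7.07 and 7.23 in the CKO-labelled arrays against 7.68, 7.90 and 7.68 in the double heterozygous arrays. The differences were -0.44 in Mrpl36 (adjusted p = 0.115), -0.37 in Mrpl42 (adjusted p = 0.14) and -0.37 in Mrpl38 (adjusted p = 0.152). Mrpl3 had a difference of -0.25 (adjusted p = 0.212) and Mrps22 one of -0.24 (adjusted p = 0.277).

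The last comparison set double heterozygous against control hearts, which by their labels differ by Cre at 1 Nkx2-5 allele. Both carry 1 floxed Gata4 allele, which Cre can recombine. Cre, the changed Nkx2-5 allele and that Gata4 allele therefore cannot be told apart here. The difference was small: 60 of 76 members were lower, with a median of -0.04 and a range from -0.23 to 0.09, against a median of 0.00 over all probe sets. Limma called 0 members and 0.0% of all probe sets, and at an unadjusted p under 0.05 it gave 0 members, against 1.6% of all probe sets lower and 1.59% higher. The groups did not overlap for 8 members, all lower (10.5%), against 5.66% of all probe sets lower and 4.69% higher. These were Mrpl1, Mrpl12, Mrpl32, Mrps9, Mrps18b, Mrps22, Mrps26 and Mrps28. Mrps9 had the largest difference, -0.23, with 8.14, 8.04 and 8.06 in the double heterozygous arrays against 8.34, 8.43 and 8.16 in the control arrays. Mrpl1, of the stalk that guides spent transfer RNA, had a difference of -0.15, and Mrpl32 one of -0.13. The median depended on single arrays: it was -0.016, -0.084 and -0.009 without double heterozygous replicate 1, 2 or 3, and -0.014 without control replicate 1. Without double heterozygous replicate 3 the count of lower members was 39, and the large subunit median was 0.002. In the F-test over the 3 groups, 1 member was called (Mrps23), against 0.961% of all probe sets.

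Cytosolic ribosomal proteins and respiratory chain subunits were measured on the same arrays. The 50 cytosolic ribosomal proteins, which build the ribosomes outside mitochondria, had a median difference of 0.00 between CKO-labelled and control hearts, with 24 lower, 26 higher and 0 called; with median centring of the arrays this median was -0.12, and -0.11 on the scale as deposited. At an unadjusted p under 0.05, 3 of them were lower and 2 higher. The 81 subunits of the respiratory chain and ATP synthase had a median of -0.13, with 64 lower; this median was -0.28 with median centring and -0.27 on the scale as deposited. At an unadjusted p under 0.05, 25 of them were lower and 4 higher, against 7.33% and 5.89% of all probe sets. All CKO-labelled arrays lay below all control arrays in 20 (24.7%), against 5.81% of all probe sets and 12.8% of the genes at or above the dimmest member. Of the 81, Cyc1, of complex III, was 1.32-fold lower (adjusted p = 0.0276), Atp5g1, of ATP synthase, was 1.30-fold lower (adjusted p = 0.03), and Ndufv3, of complex I, was 1.31-fold higher (adjusted p = 0.03). All 3 calls were lost without CKO replicate 5 or any 1 control array, and those of Atp5g1 and Ndufv3 also without double heterozygous replicate 1 (adjusted p 0.0512 to 0.171 for Cyc1, 0.0551 to 0.152 for Atp5g1 and 0.0522 to 0.178 for Ndufv3). Array by array the respiratory chain median was -0.03, 0.01, -0.15, -0.25 and -0.18 in CKO replicates 1 to 5, with replicate 4 lowest as for the members. No test compared these groups with the members.

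**Figure D4:**
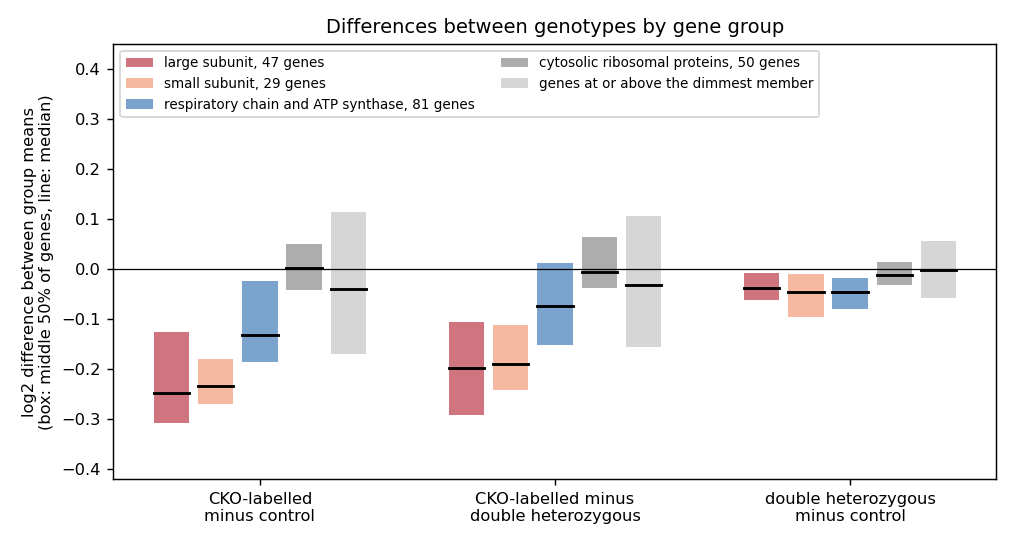
Log2 differences in the 3 comparisons for each gene group: boxes span the middle 50% of genes and lines mark the medians. In CKO-labelled minus control the medians are -0.25 and -0.23 for the mitochondrial subunits, -0.13 for the respiratory chain, 0.00 for cytosolic ribosomal proteins (-0.12 with median centring) and -0.04 for the 6249 genes at or above the dimmest member.

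Genes that work with the mitochondrial ribosome were described from lists of its factors. As background for the lists that follow, 0.566% of all probe sets were called lower and 0.837% higher between CKO-labelled and control hearts. At an unadjusted p under 0.05 these shares were 7.33% and 5.89%. Of 12 measured translation factors and associated proteins, 10 were lower in CKO-labelled than in control hearts, with a median of -0.24 and 2 called. Gfm1, the elongation factor that moves the ribosome along the messenger, had levels of 8.77, 8.74, 8.71, 8.79 and 8.61 in the CKO-labelled arrays, 9.09, 9.29 and 8.95 in the double heterozygous arrays, and 9.30, 9.34 and 9.18 in the control arrays. All its CKO-labelled arrays lay below all others, and it was 1.46-fold lower than in control arrays (difference -0.55 ± 0.0903 SE, adjusted p = 0.00601). Its adjusted p was 0.0587 without control replicate 1 and 0.0664 without control replicate 2. Letm1, an inner membrane protein of ion exchange that binds the ribosome, was 1.44-fold lower (difference -0.53 ± 0.117 SE, adjusted p = 0.039), but missed the threshold without any 1 array other than CKO replicates 1 and 2 (adjusted p 0.0506 to 0.192). The elongation factors Tufm and Tsfm had differences of -0.22 and -0.27 that were not called.

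Of 19 mitochondrial aminoacyl-tRNA synthetases and amidotransferase subunits, which charge transfer RNA, 17 were lower, with a median of -0.12. Among them Qrsl1, of the amidotransferase, was called, 1.35-fold lower (difference -0.43 ± 0.0994 SE, adjusted p = 0.045), and missed the threshold without any 1 array other than CKO replicates 2 and 4 (adjusted p 0.0529 to 0.244). Of 25 assembly and RNA-binding factors, 23 were lower with a median of -0.20, and 0 were called by limma, with 8 lower and 0 higher at an unadjusted p under 0.05. The closest were C1qbp, a matrix protein (difference -0.23, adjusted p = 0.0552), and Noa1, a GTPase (difference -0.48, adjusted p = 0.0755). Of 4 measured mitochondrial ribosomal proteins with other symbols, 3 were lower, with -0.24 in Ptcd3 and -0.22 in Chchd1, and Dap3 had a difference of 0.05.

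Of 15 regulators of mitochondrial transcription and biogenesis, 10 were lower, with a median of -0.10 and 1 called. Mycn, a growth-promoting transcription factor, was 1.34-fold lower in CKO-labelled than in control arrays (difference -0.42 ± 0.0897 SE, adjusted p = 0.03). It missed the threshold without CKO replicate 5, any 1 control array or double heterozygous replicate 1 (adjusted p 0.0501 to 0.175). The factors whose motifs were searched were not called: Nrf1 had a difference of 0.26 (adjusted p = 0.427), Gabpa one of -0.06 (adjusted p = 0.886) and Yy1 one of 0.12 (adjusted p = 0.681). Neither was Tfam, which packs mitochondrial DNA (difference -0.21, adjusted p = 0.377), nor the coactivator Ppargc1a (difference -0.42, adjusted p = 0.471). In the other comparisons limma called 0 genes of these 5 lists. At an unadjusted p under 0.05, CKO-labelled against double heterozygous hearts gave 4 lower of 12 translation factors and 2 lower of 19 synthetases. It also gave 6 lower and 1 higher of 25 assembly factors, and 3 lower and 1 higher of 15 regulators. Over all probe sets 6.54% were lower and 5.44% higher at that p, and of the 6249 genes at or above the dimmest member 827 and 592. Double heterozygous against control hearts gave 0 in these lists, against 1.6% of all probe sets lower and 1.59% higher.

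Of 6 marker lists for cell types a dissected heart can hold, 4 had genes called between CKO-labelled and control hearts, and the erythroid and neural lists had 0. The summed intensity of 8 of 8 cardiomyocyte markers was 48050 to 51740 in CKO-labelled, 49460 to 50980 in double heterozygous and 49890 to 50480 in control arrays, and Myh7 was called higher (difference 0.27). Of these 8 markers, 6 had a lower mean in CKO-labelled than in control arrays, among them Nkx2-5 (difference -0.53, not called). Nkx2-5 carries Cre in both Cre groups, and it was also lower in double heterozygous than in control arrays (difference -0.39, not called). At an unadjusted p under 0.05, 3 of the 8 were lower and 1 was higher. The median level of this list was 12.635 to 12.801 per array, near the top of the scale (13.116). The summed intensity of 6 of 6 endothelial markers was 1701 to 2116 in CKO-labelled, 1491 to 1562 in double heterozygous and 1522 to 1627 in control arrays, with Kdr and Cdh5 called higher and Tek called lower. For 7 of 7 epithelial markers it was 1999 to 2657 in CKO-labelled, 1473 to 1873 in double heterozygous and 1317 to 1409 in control arrays, with Krt8 and Krt18 called higher and Foxa2 near the floor (mean level 4.31). For 6 of 6 proepicardial markers it was 353.2 to 916.8 in CKO-labelled, 529.8 to 812.1 in double heterozygous and 1051 to 1140 in control arrays, with Lrrn4 and Tcf21 called lower. The 6 measured of 7 erythroid markers summed to 18640 to 23950 in CKO-labelled, 19330 to 22460 in double heterozygous and 18970 to 22180 in control arrays, with 0 called and 2 higher at an unadjusted p under 0.05. The 5 of 5 neural markers summed to 88.6 to 158.3 in CKO-labelled, 80.03 to 96.98 in double heterozygous and 102.6 to 111.6 in control arrays, with 0 called and 1 lower at an unadjusted p under 0.05. The median level per array was only 4.846 to 5.498 for the neural list and 5.217 to 6.703 for the epithelial list, against 5.346 over all probe sets. Of the 7 epithelial markers, 6 had a higher and 1 a lower mean in CKO-labelled than in control arrays. Against double heterozygous arrays 3 were higher and 4 lower, with a median difference of -0.037, so the sums do not stand for every gene of the list. Without any 1 control array Myh7, Cdh5 and Tcf21 missed the threshold (adjusted p 0.0788 to 0.112, 0.0885 to 0.131 and 0.0804 to 0.113), as did Kdr without control replicate 1 or 2 (0.0739 and 0.0665), Lrrn4 without control replicate 2 or 3 (0.0558 and 0.0601) and Cdh5 without CKO replicate 5 (0.0539). The part of these markers in the differences of the mitochondrial ribosomal proteins was not tested.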

How the data were processed

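Per the labels' protocols, TRIzol was used to extract RNA from pooled hearts, and 50 ng was amplified (Ovation kit) and biotin-labelled. The authors deposited 1 linear intensity for each probe set and array. PLIER is named in the submitters' processing notes; the sources used here give neither its version nor the background correction or scaling. No detection calls were used, so probe sets near the floor were not removed before testing. The number of arrays limits the precision. Each deposited intensity was transformed as log2(value + 16) and the arrays were quantile normalised. The offset understates differences of dim genes. The 64 control probe sets were left out, leaving 45037. Limma 3.58.1 (R 4.3.3) fitted 1 coefficient per group to the 11 arrays together, with a trended variance prior and 8 residual degrees of freedom. Tests were two-sided, with Benjamini-Hochberg adjustment over all probe sets. The script was tested on simulated data.

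Symbols came from the platform annotation, where 34945 probe sets had 1 symbol, 932 several and 9160 none; 34741 matched RefSeq (GRCm38.p6) and 0 symbols changed. The 4 probe sets with several symbols that include a member were not used. Named members were those called, those with the smallest p per comparison and subunit, those with the highest and lowest levels, and some fixed for their role; from each related list, called genes or otherwise the 2 with the smallest p, with further factors named for their role. The members, lists and tests were chosen with earlier results of these data known. Alternatives were the offset, the scaling, a filter on dim probe sets, no trend, array weights, a replicate block, other probe set rules, only 2 groups, and arrays left out. Deviations from the group means correlated at -0.0557 to 0.15 between same-numbered arrays and at -0.135 to 0.118 between differently numbered ones. With so few arrays these values cannot settle whether the replicate numbers pair the arrays. No 2 arrays shared over 0.829% identical values, so none was treated as a copy.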

Additional observations from a re-analysis of the deposited data

Results flagged for a closer look

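Of 69 values tested for an array far from the rest of its group, 4 stood out, where chance gives about 1 in 20. Mrps18b, a small subunit gene, had a level of 8.068 in CKO replicate 4, against 8.557 to 8.636 in the other CKO-labelled arrays; the gap to the nearest array was 0.86 of the group's range. In the same array Cyc1, of respiratory complex III, was at 10.969, against 11.165 to 11.213 in the others. The GTPase Noa1 was at 5.977 in CKO replicate 3, against 6.246 to 6.281 in the others. Ccnd2, which encodes Cyclin D2, was at 11.476 in CKO replicate 2, against 11.031 to 11.137 in the others. CKO replicate 4 was also the lowest CKO-labelled array for 56 of 76 members.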

How the results depend on the processing

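The direction of both subunit medians in CKO minus control and CKO minus double heterozygous, and of the differences of Mrps23, Mrpl36 and Mrpl3, held under each alternative run, while the counts of calls did not. CKO minus control called 632 probe sets and 3 members; the counts were 2393 and 23 with array weights, 362 and 1 with median centring, 92 and 0 on the deposited scale, 281 and 1 with no intensity trend, 1362 and 9 without CKO replicates 2 and 3 together, 263 and 1 with only the 2 groups compared, and 168 to 897 and 0 to 6 with 1 array left out. A filter on dim probe sets gave 7 members. CKO minus double heterozygous called 157 probe sets and 0 members; the counts were 613 and 3 with array weights, 65 with median centring, 15 on the deposited scale, 53 with no intensity trend, 650 and 2 without CKO replicates 2 and 3 together, 61 with only the 2 groups compared, and 15 to 415 and 0 to 4 with 1 array left out, and the filter gave 1 member. Double heterozygous minus control called 0 probe sets, 8 with array weights, 2 without CKO replicates 2 and 3 together and 1 with only the 2 groups compared; 39 to 68 members were lower with 1 array left out, against 60. The F-test called 433 probe sets and 1 member; the counts were 1599 and 12 with array weights, 81 and 0 on the deposited scale, 678 and 4 with the filter, 284 probe sets with median centring, 198 and 0 with no intensity trend, 885 and 3 without CKO replicates 2 and 3 together, and 185 to 653 and 0 to 4 with 1 array left out.

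The replicate block drops CKO replicates 4 and 5, which have no partner, and whether the numbers pair the arrays is not known. With the replicate block CKO minus control called 265 probe sets and 0 members (member median -0.143, 63 lower), CKO minus double heterozygous 65 probe sets, and the F-test 157 and 0.

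Scaling moved the medians. In CKO minus control the large and small subunit medians were -0.401 and -0.382 with median centring, and -0.392 and -0.373 on the deposited scale. In CKO minus double heterozygous the large subunit was at -0.364 with median centring, and the small subunit at -0.348, or -0.301 on the deposited scale. The genes at or above the dimmest member moved too, to -0.194 with median centring and -0.185 on the deposited scale in CKO minus control, so that the members lay 0.20 below them in each (-0.202 as reported, -0.199 in both alternatives). The large minus small difference in CKO minus double heterozygous was -0.051 to 0.013 with 1 array left out. The cause of these shifts was not tested.

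Among the 23 alternatives, 5 ended the call of Mrps23, 14 that of Mrpl36 and 11 that of Mrpl3. The differences ranged from -0.832 to -0.489, from -0.627 to -0.373 and from -0.528 to -0.26.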
